A study of Mus musculus with 12 samples.

Results

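The 34 genes described here encode the enzymes of glycolysis, the transporters that bring glucose in and take lactate out, and a set of genes that respond to low oxygen. They were picked by gene symbol from a table of 27503 genes, and the list was drawn up with earlier results of these data known. All 34 passed the filter on low counts, which left 17590 genes for testing. The cells were B16F10, a mouse melanoma line that grows as a graft, and their RNA was sequenced in 4 groups of 3 libraries: wild-type control, wild-type with IFNα (interferon alpha), IRF7-C435A mutant control, and the mutant with IFNα. IRF7 is a transcription factor of the interferon response, and C435A exchanges a cysteine of the protein for alanine. The labels give neither the dose nor the duration of IFNα, nor do they say how the mutant cells were made, whether they are a single clone, or whether libraries of a group came from separate cultures. P-values therefore measure only the spread between these libraries, which may be technical.

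Glycolysis splits glucose into pyruvate in the cytosol and yields ATP without oxygen, and lactate dehydrogenase turns the pyruvate into lactate so that the pathway can go on. Tumour cells often run it at a high rate even with oxygen present. When oxygen is short, the prolyl hydroxylases encoded by the Egln genes stop marking the HIF alpha subunits for destruction. HIF then accumulates as protein, binds DNA, and activates most glycolytic genes together with angiogenic, mitophagic and pH-regulating genes. Hif1a is controlled mainly at the protein level, which an RNA table does not show.

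Library totals ran from 60511573 to 75927461 deposited counts. The summed level of 8 melanocyte marker genes was 7168 to 9583 CPM in every library. CPM are counts scaled to the library total after its adjustment by TMM, a scaling factor for each library. Summed markers of lung epithelium, which a melanoma culture should lack, were at 42.4 to 65.4 CPM in 8 libraries: wild-type control 1, all of wild-type IFNα, all of C435A control, and C435A IFNα 3. In wild-type control 2 and 3 and in C435A IFNα 1 and 2 they were at most 0.228 CPM, so this split runs unevenly across the groups. Summed leukocyte markers were at 108 to 120 CPM in C435A controls and 60.4 to 96.1 in the other groups. The part of these transcripts in the results was not tested beyond the values given beside Aldoc and the further HIF targets. Irf7 itself was at 11.6 to 12.8 FPKM (fragments scaled to transcript length and library size) in wild-type controls, 8.45 to 9.87 in wild-type IFNα, 4.44 to 5.19 in C435A controls and 4.63 to 7.23 in C435A IFNα. Counts do not show the amino acid exchange.

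The letters ACGTG are the core of the element that HIF binds, and promoter stretches that hold them are shown because they are what many of these genes have in common besides function. RefSeq promoters (GRCm38.p6, 250 bases before to 50 bases after a start) were found for 32 of the 34 genes. Slc2a3 and Ndrg1 were not among them. ACGTG occurred on either strand in 25 of 48 member promoters (52.1%) and in 19.6% of all 32851 promoters of the same length. GCGTG, the other form of the core, occurred in 60.4% of member promoters and 32.4% of all. The palindrome CACGTG, which counts as ACGTG on both strands, occurred in 12.5% and 7.15%. Member promoters were richer in G and C, at a median of 63.8% against 52.7% for all promoters, and its part in these shares was not tested. The following windows of 41 bases lie wholly before the start. Capitals mark every base that belongs to ACGTG or GCGTG on either strand, and a match that runs past the end of a window is shown in part.
Ldha, chr7:46845752-46845792, plus strand: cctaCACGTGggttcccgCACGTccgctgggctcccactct
Slc2a1, chr4:119108691-119108731, plus strand: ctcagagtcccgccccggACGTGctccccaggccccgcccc
Hk2, chr6:82774484-82774524, minus strand: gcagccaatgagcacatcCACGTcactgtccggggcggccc
Aldoa, chr7:126799358-126799398, minus strand: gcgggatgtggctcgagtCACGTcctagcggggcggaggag
Pgk1, chrX:106186951-106186991, plus strand: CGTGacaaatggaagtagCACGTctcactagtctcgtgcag
Pgam1, chr19:41911739-41911779, plus strand: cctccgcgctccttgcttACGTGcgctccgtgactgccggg
Bnip3, chr7:138909591-138909631, minus strand: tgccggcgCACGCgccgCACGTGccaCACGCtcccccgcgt
The Ldha promoter held the most matches to ACGTG, 5 in all, and its window shows 3 of them. A match describes letters and says nothing of binding in these cells.

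The 250 bases before the first listed start of Aldoc are given whole, since Aldoc was the member that passed the test between the lines.
Aldoc, chr11:78322823-78323072, plus strand: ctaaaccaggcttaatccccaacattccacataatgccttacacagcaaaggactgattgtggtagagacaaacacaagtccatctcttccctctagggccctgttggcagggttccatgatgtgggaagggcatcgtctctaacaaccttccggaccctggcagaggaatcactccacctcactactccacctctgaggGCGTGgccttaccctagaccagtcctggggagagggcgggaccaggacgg
This stretch holds GCGTG, and the nearest ACGTG on either strand begins 27 bases after the start. The promoters listed for Eno2 hold neither motif, and those of Ldhb and Pfkp hold GCGTG alone.

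Several glycolytic enzymes were among the most abundant transcripts of these cells, while others, such as Aldoc, Eno2 and Hk2, were at a few FPKM. Tpi1 had a mean of 1359 FPKM over the 12 libraries, rank 49 of all genes, and Ldha 1188 FPKM, rank 63. Of the 34 genes, 7 ranked among the first 200 and 10 had a mean of at least 100 FPKM. The median member of lower glycolysis was at 573 FPKM, that of glucose entry at 4.68 FPKM, and that of the other HIF targets and stress genes at 3.09 FPKM. At the other end 5 members had a mean under 1 FPKM: Ankrd37, Car9, Pdk1, Egln3 and Adm. The summed FPKM of 17 glycolytic enzymes was 6997 ± 560 (SD, n = 3) in wild-type controls, 6480 ± 455 in wild-type IFNα, 6648 ± 307 in C435A controls and 6340 ± 236 in C435A IFNα. The ranges overlapped between IFNα and control in each line and between the lines at each treatment. The enzymes made up 1.27% to 1.69% of all FPKM in a library, and 2.92% to 3.87% with the near-identical copies of Gapdh described below added. How fragments that fit several copies were counted is not given, so the latter is not a share of enzyme transcripts.

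**Figure D1:**
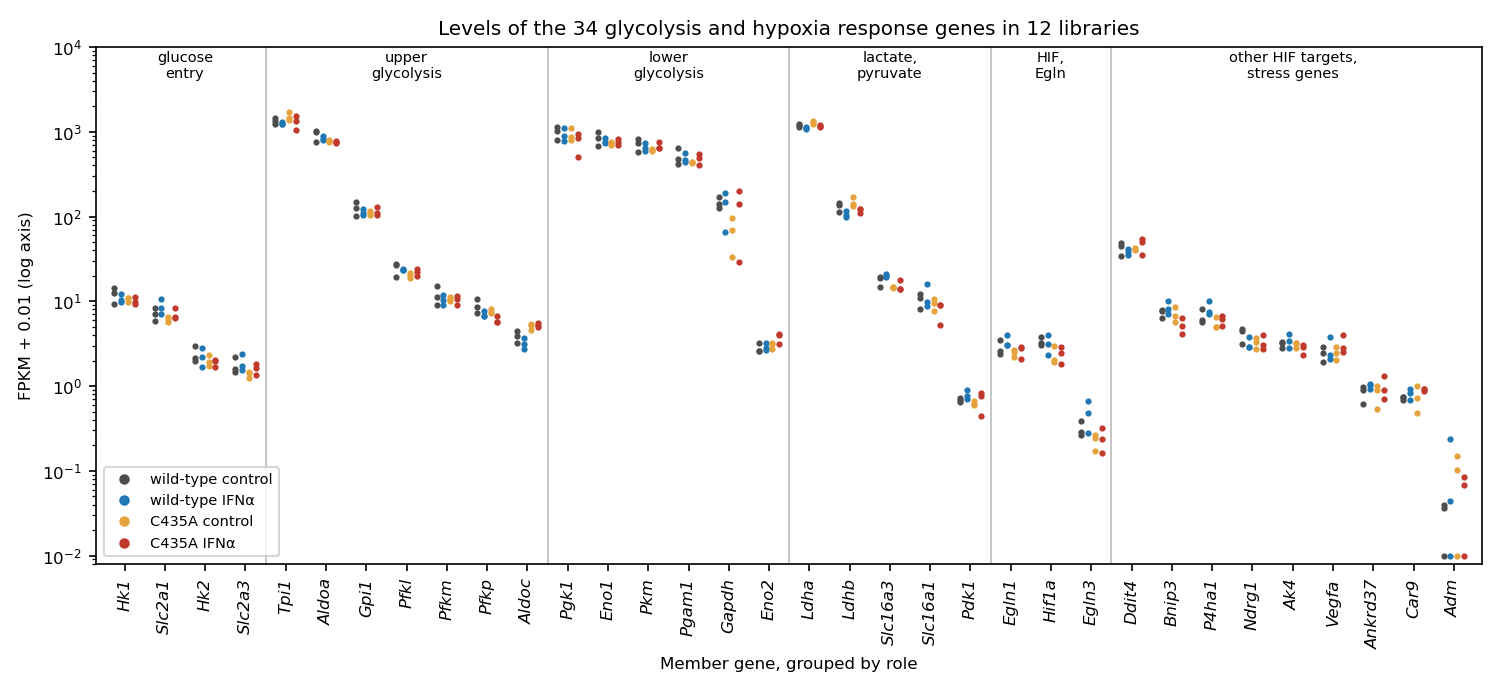
FPKM + 0.01 on a log axis for each of the 34 genes in each of the 12 libraries, coloured by group and ordered by role and mean level. Tpi1 and Ldha lie above 1000 FPKM in every library, and most hypoxia response genes lie between 1 and 10. For most genes the points lie close together compared with the whole range of levels, while those of Gapdh run from 29.3 to 200 FPKM.

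The design asks of each gene whether IFNα moved it in either line and whether the C435A line differed from the wild type. The answer for most of these genes was no detectable change. With IFNα 0 of 34 passed the threshold (adjusted p under 0.05, quasi-likelihood test of edgeR, p-values adjusted by Benjamini and Hochberg's method over all genes) in the wild type, where 0.0227% of all genes passed, and 0 in the C435A line, where 0.00569% passed. DESeq2 called 0 in each, against 0.387% and 0.952% of all genes, and limma on log2(FPKM + 1) also 0, against 0.0297% in each. At an unadjusted p under 0.05 there were 3 members in the wild type and 2 in the C435A line, or 8.82% and 5.88%, against 5.44% and 10.3% of all genes. Over the mean of both lines 0 of 34 passed with edgeR, against 0.171% of all genes, and 0 with limma, against 0.258%, while 3 had an unadjusted p under 0.05, against 10.2% of all genes. DESeq2 called 2 there, Ldhb and Pfkp, where it called 2.11% of all genes.

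Between the lines without IFNα 0 of 34 passed with edgeR, DESeq2 or limma, against 0.165%, 1.26% and 0.347% of all genes, and 2 had an unadjusted p under 0.05, against 10.7%. With IFNα 1 passed, Aldoc, higher in the C435A line, or 2.94% against 0.597% of all genes, and 7 had an unadjusted p under 0.05, against 13.7%. Limma called 0 with IFNα, against 0.555% of all genes. Over the mean of both treatments Aldoc was again the 1 member that passed, where 2.8% of all genes did, so the members' share of 2.94% was at the background. Limma called Aldoc there too, against 3.93% of all genes, and 9 members had an unadjusted p under 0.05, against 18.1%. DESeq2 called Aldoc and Eno2 with IFNα, and Aldoc, Eno2 and Ldhb over the mean of both treatments, against 4.02% and 7.29% of all genes. In the test of whether IFNα acted differently in the 2 lines 0 of 34 passed with edgeR, DESeq2 or limma, against 0%, 0.0604% and 0% of all genes. No member had an unadjusted p under 0.05 in that test, against 5.17% of all genes.

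As a set the genes stayed near the median of all genes. Their median log2 fold change was −0.09 for the IFNα effect in wild-type cells (0.02 for all genes), 0.03 for that in the C435A line (−0.01), −0.08 between the lines without IFNα (0.00) and −0.00 with IFNα (−0.01). The 95% interval of the log2 fold change lay within a 2-fold change either way for 31, 32, 31 and 29 of the 34 genes. For these a change beyond 2-fold lies outside the interval, and smaller ones were not detectable for many. Comparisons that share a group share its libraries, so their values are not independent.

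**Figure D2:**
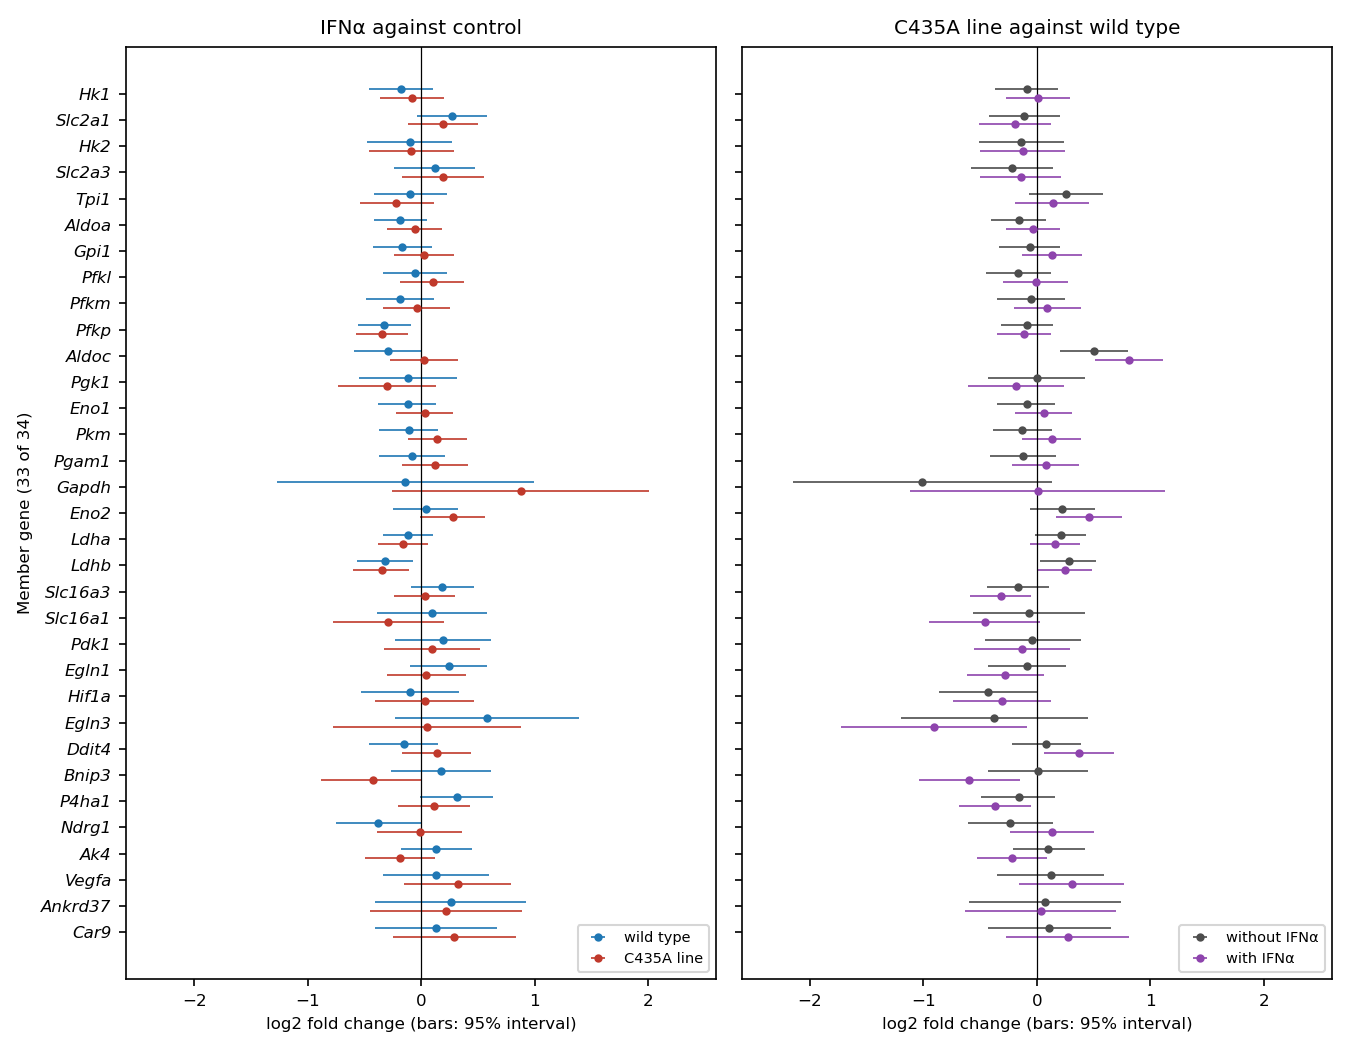
Log2 fold change (points) with its 95% interval (bars) for 33 of the 34 genes, Adm being left out for its low counts. The left panel shows IFNα against control in each line and the right panel the C435A line against wild type without and with IFNα. Aldoc, in the right panel, is the 1 gene past the threshold, and Gapdh has the widest interval of the abundant genes.

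Glucose entry was represented by Slc2a1 and Slc2a3, which encode the glucose transporters GLUT1 and GLUT3, and by the hexokinases Hk1 and Hk2, which trap glucose as its phosphate. Slc2a1 was at 5.83, 7.13 and 8.39 FPKM in wild-type controls, 10.7, 7.14 and 8.29 in wild-type IFNα, 6.12, 6.59 and 5.61 in C435A controls and 6.4, 6.57 and 8.26 in C435A IFNα. The groups overlapped in each of the 4 comparisons of IFNα with control or of the lines, and over both lines the log2 fold change with IFNα was 0.23 ± 0.103 (SE; edgeR adjusted p = 0.469). Slc2a3 ranged from 1.22 to 2.41 FPKM and Hk2 from 1.67 to 2.98. For both the highest value was in a wild-type library. Hk1, the constitutive hexokinase, supplied 81.1% to 86.7% of the summed hexokinase FPKM in every library, and Slc2a1 78.4% to 85.9% of the summed FPKM of the 2 transporters.

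Upper glycolysis turns glucose phosphate into a pair of interconvertible triose phosphates. Aldolase cuts fructose bisphosphate, and Aldoc encodes its brain-type isoenzyme while Aldoa encodes the abundant muscle-type form. Aldoc (chromosome 11, deposited position 78213794 to 78218607) was at 3.23, 4.42 and 3.86 FPKM in wild-type controls, 3.69, 2.75 and 3.13 in wild-type IFNα, 5.31, 5.39 and 4.55 in C435A controls and 4.95, 5.46 and 5.28 in C435A IFNα. Every C435A library lay above every wild-type library. In bulk RNA, fewer cells that express a gene and less RNA per cell cannot be told apart. Aldoc was the 1 member whose 6 C435A libraries did not overlap the 6 wild-type ones in CPM, which also held for 2.8% of all genes.

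Over both treatments Aldoc was 1.58-fold higher in the C435A line (log2 0.66 ± 0.0999, edgeR adjusted p = 0.00391). The call held in all 12 fits that left out 1 library, at 0.61 to 0.73. With IFNα the difference was 1.75-fold (log2 0.81 ± 0.142, edgeR adjusted p = 0.0207) and without it 1.42-fold (log2 0.50 ± 0.141, edgeR adjusted p = 0.225). The difference between these was not past the threshold (log2 0.31 ± 0.199, edgeR adjusted p = 0.916). The call with IFNα was lost in 5 of the 12 fits, those without any of the wild-type IFNα libraries (log2 0.86, 0.74 and 0.83 without 1, 2 and 3) or without C435A IFNα 1 or 2 (0.84 and 0.79). It was also lost with limma on log2(FPKM + 1) (adjusted p = 0.0572), with library totals as scaling (edgeR adjusted p = 0.0859) and with only the groups compared in the fit (edgeR adjusted p = 0.0981).

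Among the libraries that held lung transcripts, the 4 of the wild type were at 2.75 to 3.69 FPKM and the 4 of the C435A line at 4.55 to 5.39. Among those that did not, where the line goes with the treatment, the wild-type controls 2 and 3 were at 4.42 and 3.86 and C435A IFNα 1 and 2 at 4.95 and 5.46. With a term for these libraries the difference over both treatments was the same (log2 0.66, edgeR adjusted p = 0.00483), and that with IFNα missed the threshold (log2 0.74, edgeR adjusted p = 0.0798). Aldoa was at 731 to 1030 FPKM, so Aldoc made up 0.41% ± 0.0331 and 0.382% ± 0.0354 (SD, n = 3) of the summed aldolase FPKM in wild-type controls and wild-type IFNα. In C435A controls and C435A IFNα it made up 0.649% ± 0.0555 and 0.687% ± 0.0581. The 1.58-fold difference thus concerned less than 1% of aldolase transcripts.

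Phosphofructokinase commits the sugar to glycolysis and is built from liver (Pfkl), muscle (Pfkm) and platelet (Pfkp) subunits. Pfkp was at 7.35, 8.45 and 10.5 FPKM in wild-type controls, 7.75, 6.62 and 6.71 in wild-type IFNα, 7.48, 8.14 and 7.25 in C435A controls and 5.76, 6.75 and 5.75 in C435A IFNα. In TMM-scaled CPM, but not in FPKM, the 6 IFNα libraries lay below the 6 controls, as for 0.614% of all genes. The log2 difference over both lines was −0.34 ± 0.0769, with an adjusted p of 0.115 from edgeR, 0.00193 from DESeq2 and 0.231 from limma. It was −0.33 in the wild type and −0.35 in the C435A line. Pfkp overlaps Pitrm1, on the other strand, by 748 bases, and the strand setting of the counting is not given in the sources used here. Pfkl supplied 51.2% to 60% of the summed phosphofructokinase FPKM.

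Tpi1, which interconverts the triose phosphates, was at 1456, 1344 and 1228 FPKM in wild-type controls, 1247, 1319 and 1249 in wild-type IFNα, 1699, 1443 and 1371 in C435A controls and 1551, 1335 and 1062 in C435A IFNα. Groups overlapped in each comparison (edgeR adjusted p = 0.36 for the lines over both treatments, log2 0.20 ± 0.108). Gpi1, which converts glucose phosphate to fructose phosphate, stayed between 102 and 150 FPKM and Pfkm between 9.03 and 15.1.

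Lower glycolysis recovers ATP, and its rows in the table need care because several of its genes have near-identical copies. Gapdh, which oxidises the triose phosphate, was listed at 126, 140 and 168 FPKM in wild-type controls, 187, 65.8 and 150 in wild-type IFNα, 33.6, 68.8 and 97.3 in C435A controls and 140, 29.3 and 200 in C435A IFNα. Within C435A IFNα alone its own row ran from 29.3 to 200 FPKM, and in CPM the row varied 7.06-fold between the 12 libraries. The table holds 76 further genes that match the Gapdh transcript at 95% identity or more over at least 300 bases, 27 of them at 99% or more. The first 60 coding bases, with the start codon in capitals, show how close they are, since this stretch occurs letter for letter in 32 other genes.
Gapdh, first coding bases: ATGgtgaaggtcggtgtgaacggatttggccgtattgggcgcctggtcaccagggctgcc

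Of all windows of 150 bases along the Gapdh transcript, 74% occurred exactly in a copy. The copies together held far more counts than Gapdh itself: 9 of them had a mean CPM above the 501 of the Gapdh row. The most abundant, Gm7336, was at 1336 to 1666 CPM. Gapdh's own row held 1.48% to 7.58% of the summed CPM of the family. Summed with its copies, Gapdh was at 8602 to 11872 CPM, a range of 1.38-fold against 7.06-fold for the row alone. Whether a fragment that fits several copies was counted more than once is not given in the sources used here, so the sum is not a count of transcripts.

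The Gapdh row alone gave log2 fold changes of −0.14 for IFNα in wild-type cells, 0.88 for IFNα in the C435A line and −1.01 between the lines without IFNα. Here the 3 C435A controls, at 150, 309 and 442 CPM, lay below all wild-type controls (edgeR adjusted p = 0.517). Summed with the copies these values were −0.16, 0.07 and −0.12, with adjusted p from edgeR of 0.999, 0.883 and 0.768. The interval for the row between the lines without IFNα ran from −2.15 to 0.13.

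**Figure D3:**
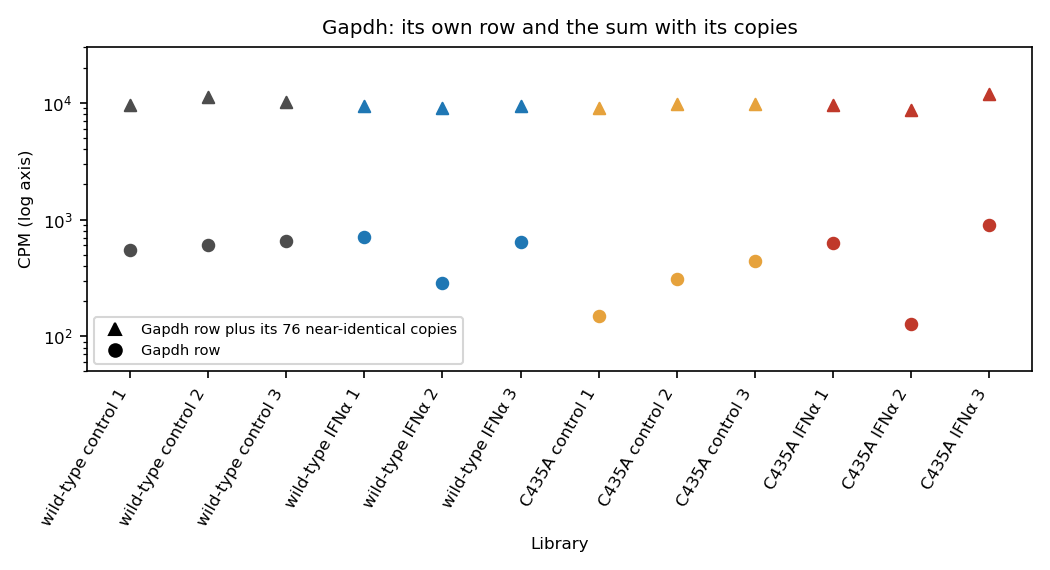
CPM on a log axis of the Gapdh row (circles) and of its sum with 76 near-identical copies (triangles) in each of the 12 libraries, coloured by group. The circles spread from 127 to 899 CPM, and the triangles from 8602 to 11872.

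The other copied enzymes kept most of their counts in their own row. Pgk1 shared 66.1% of its windows with copies and held 96.3% to 97.3% of the family's counts. Eno1 shared 49% and held 91.3% to 93%, and Pgam1 shared 37.9% and held 93.6% to 95.9%. Pgk1, the first ATP-forming enzyme, was at 1023, 809 and 1153 FPKM in wild-type controls, 1118, 890 and 773 in wild-type IFNα, 1095, 866 and 806 in C435A controls and 843, 947 and 498 in C435A IFNα. The lowest value, 498, was in C435A IFNα 3, and the groups overlapped in each comparison. In FPKM that library held the lowest value of 10 of the 34 genes, more than any other. Wild-type control 3 held the highest value of 11 and wild-type IFNα 1 of 10. The deposited FPKM carry no TMM scaling, and wild-type control 3 and wild-type IFNα 1 had the largest TMM factors, 1.1 and 1.13. In CPM the highest Pgk1 value was in C435A control 1, at 2660 against 2435 in wild-type control 3. Pkm, the pyruvate kinase, stayed between 575 and 829 FPKM and Pgam1, the phosphoglycerate mutase, between 404 and 642.

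Eno2 encodes the neuronal enolase and Eno1 the ubiquitous one. Eno2 was at 2.56, 2.59 and 3.22 FPKM in wild-type controls, 3.22, 2.79 and 2.65 in wild-type IFNα, 2.73, 3.15 and 3.18 in C435A controls and 4.01, 4.06 and 3.1 in C435A IFNα. In CPM the C435A libraries with IFNα lay above the wild-type ones, and in FPKM 1 of them, C435A IFNα 3, lay within their range. Over both treatments the log2 difference was 0.34 ± 0.0941, which missed the threshold with edgeR (adjusted p = 0.071) and passed with DESeq2 (adjusted p = 0.0144). Without C435A IFNα 3 it was 0.39 and passed with edgeR (adjusted p = 0.0308). Eno2 made up 0.304% to 0.569% of the summed enolase FPKM, as small a share as Aldoc of aldolase.

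**Figure D4:**
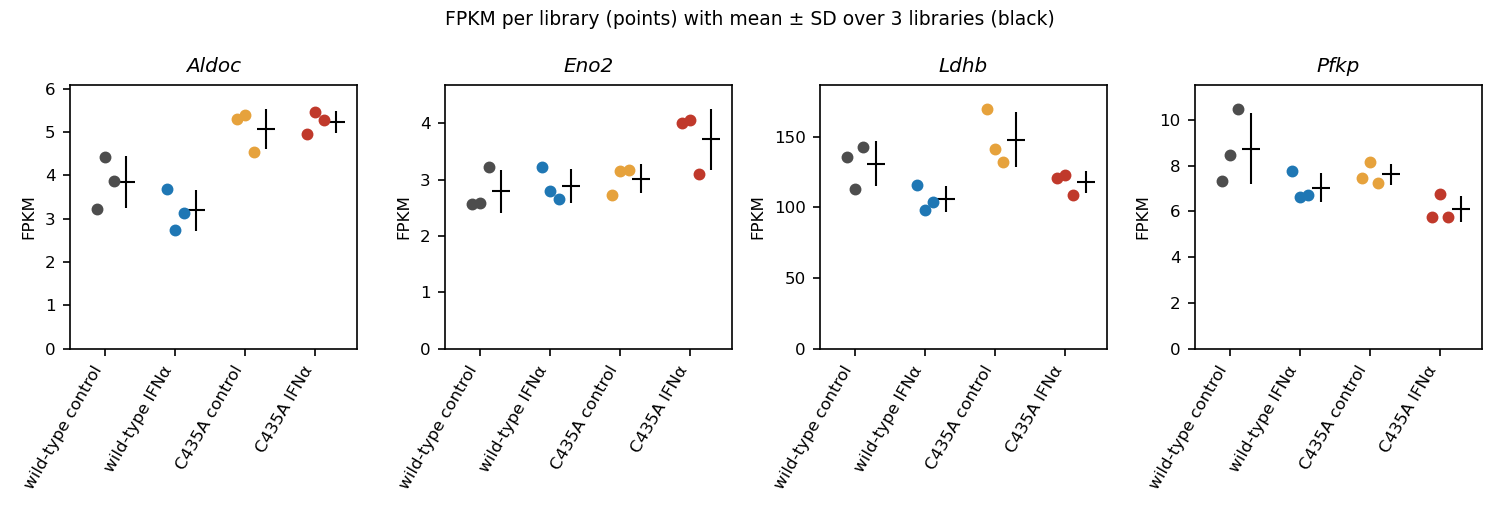
FPKM of Aldoc, Eno2, Ldhb and Pfkp in each library (points, coloured by group) with the mean ± SD of 3 libraries in black. All 6 C435A libraries of Aldoc, at 4.55 to 5.46, lie above the wild-type libraries, at 2.75 to 4.42. The other 3 genes overlap between at least some groups.

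Lactate dehydrogenase joins pyruvate to lactate, with Ldha encoding the subunit that is the classical HIF target and Ldhb the heart-type subunit. Ldhb was at 136, 113 and 143 FPKM in wild-type controls, 116, 98.2 and 104 in wild-type IFNα, 170, 141 and 132 in C435A controls and 121, 123 and 109 in C435A IFNα. In CPM the groups did not overlap in any of the 4 pairwise comparisons: lower with IFNα in each line and higher in the C435A line at each treatment. Such separation held for 12% and 17.7% of all genes with IFNα in the wild type and the C435A line. Between the lines it held for 20.3% without IFNα and 18.4% with it. The lowest C435A control was at 228 CPM and the highest wild-type control at 227. In FPKM the groups were apart only for IFNα against control in the C435A line. The log2 differences were −0.34 ± 0.0813 for IFNα over both lines (adjusted p of 0.135 from edgeR and 0.0049 from DESeq2) and 0.26 ± 0.0813 for the C435A line over both treatments (0.104 and 0.0325). Ldha was at 1079 to 1357 FPKM, with a log2 difference of 0.18 ± 0.0728 between the lines (edgeR adjusted p = 0.196). Ldhb made up 7.97% to 11.1% of the summed FPKM of the pair.

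Lactate leaves the cell through the monocarboxylate transporters encoded by Slc16a1 and Slc16a3, the latter the form made under hypoxia. Slc16a3 was at 14.6, 19.2 and 19 FPKM in wild-type controls, 20.5, 20.8 and 19.3 in wild-type IFNα, 14.4, 14.6 and 14.8 in C435A controls and 17.7, 14 and 13.8 in C435A IFNα. In FPKM all C435A libraries with IFNα lay below the wild-type ones, and in CPM the groups overlapped. The log2 difference over both treatments was −0.24 ± 0.0901 (edgeR adjusted p = 0.167). Slc16a1 ranged from 5.2, in C435A IFNα 3, to 15.9 FPKM. Pdk1, a kinase that keeps pyruvate out of the mitochondrial cycle and a known HIF target, was low throughout, at 0.438 to 0.888 FPKM.

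The sensor genes were expressed at a few FPKM. Hif1a, the oxygen-regulated HIF subunit, was at 3.03, 3.22 and 3.73 FPKM in wild-type controls, 3.97, 3.16 and 2.34 in wild-type IFNα, 2.99, 1.89 and 2.01 in C435A controls and 2.46, 2.86 and 1.82 in C435A IFNα. The lines overlapped with IFNα, and without it the C435A controls lay below the wild-type controls in FPKM but not in CPM (log2 over both treatments −0.37 ± 0.142, edgeR adjusted p = 0.186). Egln1, the main oxygen sensor of the family, was at 2.07 to 3.97 FPKM. With IFNα all 3 C435A libraries lay below the wild type, at 2.07, 2.87 and 2.79 against 3.97, 3.04 and 3.03, which was not past the threshold (log2 −0.28 ± 0.159, edgeR adjusted p = 0.473). Egln3, itself a HIF target, was at 0.151 to 0.648 FPKM, with a log2 difference of −0.91 with IFNα whose interval ran from −1.73 to −0.09 (edgeR adjusted p = 0.309).

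The remaining HIF targets and stress genes did not share a direction. With IFNα, Bnip3, a mitophagy receptor, was at 8.08, 10 and 6.99 FPKM in the wild type and 6.34, 5.16 and 4.11 in the C435A line, which did not overlap (log2 −0.60 ± 0.207, edgeR adjusted p = 0.213). Without IFNα it was at 7.81, 7.77 and 6.39 against 8.51, 6.65 and 5.63, which did (log2 0.01 ± 0.207). The difference between these was not past the threshold (log2 −0.61 ± 0.292, edgeR adjusted p = 0.916). P4ha1, a collagen prolyl hydroxylase subunit, was at 10.2, 7.16 and 7.55 FPKM in wild-type IFNα and 6.15, 6.73 and 5.1 in C435A IFNα (log2 −0.37 ± 0.15, edgeR adjusted p = 0.288). Ddit4, which restrains mTORC1 under stress, lay on the other side, at 41.9, 35.2 and 38.2 FPKM against 54.4, 49.7 and 35.4 (log2 0.37 ± 0.143, edgeR adjusted p = 0.262). With IFNα, 8 of the 34 genes did not overlap between the lines, 5 higher and 3 lower in the C435A line, or 23.5% against 18.4% of all genes. Without IFNα there were 4, against 20.3% of all genes, and with IFNα against control there were 4 in the wild type and 3 in the C435A line, against 12% and 17.7%.

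Vegfa, the angiogenic growth factor, was at 1.93 to 3.97 FPKM, with its highest values in C435A IFNα 3 and wild-type IFNα 1. Car9, the carbonic anhydrase used as a hypoxia marker, was at 0.469 to 0.983 FPKM. Ndrg1 was at 2.69 to 4.73 FPKM, the adenylate kinase gene Ak4 at 2.33 to 4.12, and Ankrd37 at 0.521 to 1.29. Adm, which encodes the peptide adrenomedullin, had 0 to 31 counts per library, too few for a fold change to be read.

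Of the other genes of these pathways few passed with edgeR. Among 20 further glycolytic enzymes tested, 12 genes of pyruvate dehydrogenase and its control, 8 further sugar and monocarboxylate transporters and 14 regulators of HIF, 0 passed in any of the 7 comparisons with edgeR or limma. Between the lines with IFNα DESeq2 called Pgam5 (1 of 17 enzymes) and Bsg and Slc2a6 (2 of 8 transporters), against 4.02% of all genes. For IFNα over both lines it called Eno3 (1 of 16 enzymes), against 2.11%. Between the lines over both treatments it called Adpgk and Minpp1 (2 of 19 enzymes) and Slc2a6 (1 of 8 transporters), against 7.29%. It called 0 of the pyruvate dehydrogenase genes and HIF regulators. The nearest enzyme was Adpgk, an ADP-dependent glucokinase (log2 −0.47 ± 0.119 in the C435A line over both treatments, edgeR adjusted p = 0.052). The nearest transporter was Slc2a6, a sugar transporter (0.63 ± 0.151 in the C435A line with IFNα, edgeR adjusted p = 0.0772). For the last 2 lists they were Crebbp, a HIF coactivator (0.59 ± 0.221, edgeR adjusted p = 0.171), and the pyruvate dehydrogenase kinase gene Pdk3 (−0.31 ± 0.117, edgeR adjusted p = 0.182). The values of Crebbp and Pdk3 are for the C435A line over both treatments. Among 44 further HIF targets, a list also drawn up with earlier results known, 2 were higher and 1 lower in the C435A line over both treatments. This was 6.82%, against 2.8% of all genes, and 0 passed in the other 6 comparisons with edgeR. Limma called 3 of 32 over both treatments, Hilpda, Hmox1 and Plod2, against 3.93% of all genes. DESeq2 called 6 of 44 there, Ero1a, Fam162a, Hilpda, Hmox1, Plod2 and Rragd, against 7.29% of all genes. It also called Insig2 and Narf for IFNα in the C435A line (2 of 45, against 0.952% of all genes). Between the lines without IFNα it called Fam162a and Hmox1 (2 of 45, against 1.26%). For IFNα over both lines it called Insig2, Narf and Selenbp1 (3 of 39, against 2.11%).

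Hilpda, which encodes a lipid droplet protein induced by hypoxia, was at 18.5 to 26.7 FPKM in the 6 wild-type libraries and 28.3 to 32.4 in the 6 C435A libraries, which did not overlap (log2 0.51 ± 0.11, edgeR adjusted p = 0.0271). Fam162a, a mitochondrial HIF target, was at 173, 170 and 156 FPKM in C435A controls against 113 to 136 in the wild type (log2 0.36 ± 0.0903, edgeR adjusted p = 0.0479). With IFNα the C435A line was at 131 to 136, within the wild-type range. Plod2, a collagen lysyl hydroxylase, was lower, at 1.21 to 2.43 FPKM in the C435A line against 2.56 to 4.51 (log2 −0.72 ± 0.165, edgeR adjusted p = 0.034). All 3 calls held with a term for the libraries with lung transcripts. Without the low-count filter those of Fam162a and Plod2 were lost, and that of Fam162a also with limma, library totals, DESeq2 size factors in edgeR or the trend with transcript length removed (log2 0.23 to 0.36). That of Fam162a held in 1 of the 12 fits that left out a library, the fit without wild-type control 1 (the others gave 0.29 to 0.40), and those of Hilpda and Plod2 in 5 each. The call of Hilpda (0.43 to 0.60) was lost without any C435A control, without wild-type control 2 or 3 and without wild-type IFNα 1 or 3. The call of Plod2 (−0.82 to −0.60) was lost without any C435A control, without wild-type control 1 or 3, without wild-type IFNα 1 and without C435A IFNα 1.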

How the data were processed

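Poly(A) RNA of 12 B16F10 libraries (3 in each of 4 groups) was sequenced from strand-marked (dUTP) libraries whose adapters carry molecular identifiers, per the labels' protocols. The authors deposited whole-number counts and FPKM per gene in 1 table. GRCm38, HISAT2 2.0.4, StringTie 1.3.4d, UMI-tools and cutadapt 1.9 appear, with no stated order, per the submitters' processing notes. The way counts were made, with or without strand and identifiers, and with reads that fit several genes, is not given in the sources used here. The deposited gene positions are not those of GRCm38 and are printed as deposited.

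The deposited counts were tested with edgeR 4.0.16 (R 4.3.3): TMM scaling, the default low-count filter, 1 quasi-likelihood fit with 4 group means, 2-sided tests, Benjamini-Hochberg adjustment over 17590 genes and a threshold of 0.05. There were 7 comparisons. All CPM are TMM-scaled, and groups are said not to overlap in CPM unless FPKM is named. DESeq2 1.42.0, limma 3.58.1 on log2(FPKM + 1), other scalings and filters, and fits without each library were alternatives, and summing members with their near-identical copies was added after seeing the data. Copies were found by aligning GENCODE M21 transcripts. Depth was 60511573 to 75927461 counts per library, and intervals cover the spread between libraries. The code was tested on simulated data.

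The members and the gene lists were chosen with earlier results of these data known. Statistics are printed for members past the threshold and for up to 3 others of each role with the smallest adjusted p, and for lists of other genes for those past it or else the nearest.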

Additional observations from a re-analysis of the deposited data

How the results depend on the processing

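The 0 calls with IFNα in each line, between the lines without IFNα and in the interaction were 0 under all 11 other settings that could be fitted, in every fit without 1 library and with the members summed with their copies. With IFNα the 1 call between the lines (Aldoc) became 0 with either limma fit, library totals as scaling, a term for lung transcripts, only the groups compared, or a mean FPKM of at least 5, which leaves out Aldoc (4.33 FPKM), and 2 with DESeq2. Without 1 library it was 0 to 1. Over both treatments it became 0 with the FPKM minimum, 3 with DESeq2, and 1 to 2 without 1 library (2 without C435A IFNα 3, adding Eno2). The 0 calls for IFNα over both lines became 2 with DESeq2. The causes were not tested. Each named gene was refitted in 1 comparison (Aldoc in 2), and in the settings that kept the gene none of these reversed. Gapdh between the lines over both treatments went from log2 −0.50 by its own row to −0.00 with its copies. Of the other comparisons, Gapdh for IFNα over both lines was 0.37 by its own row and −0.05 with its copies.

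No clear pairing of the samples by replicate number was seen. Deviations of same-numbered libraries correlated at −0.407 to 0.338 (median 0.105, 18 pairs), and those of other numbers at −0.425 to 0.658 (median 0.0393, 36 pairs). Deviations from the mean of a group of 3 libraries are not independent, so these values cannot exclude a pairing. With the replicate block 0 members were called with IFNα between the lines (Aldoc log2 0.80, adjusted p = 0.0504) and 1 over both treatments, and the calls of Fam162a and Hilpda were lost.

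The median of all genes between the lines over both treatments was −0.00, and −0.11 with limma on log2(FPKM + 0.1). There 332 of 493 calls were higher in the C435A line with TMM, and 169 of 362 with library totals. Over these settings the members' median was negative in each of 23 (−0.15 to −0.03). Without IFNα its sign between the lines held in 24 of 24 (−0.18 to −0.01), and with IFNα in 8 of 24 (−0.09 to 0.07). For IFNα against control the sign held in 22 of 24 in the wild type (−0.13 to 0.07) and 20 of 24 in the C435A line (−0.09 to 0.06). Low counts limit Adm and Egln3.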

Other observations

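Many members overlap other genes in position or have near-identical copies. The following values belong to no comparison. A second row named Aldoa, at another gene identifier, held 12 to 54 counts per library and was not used. Hk1 overlaps Hk1os, on the other strand, by 23411 bases, at mean levels of 10.9 and 0.515 FPKM. Ankrd37, at 0.893 FPKM, overlaps Ufsp2, on the other strand and at 4.41 FPKM, by 57 bases. Adm, at 0.0571 FPKM, lies within the span of Gm28863, on the other strand and at 0.061 FPKM, over 2160 bases.

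Among the 32 members whose counts averaged 100 or more, the median deviation of a library from the mean of all libraries was lowest in wild-type control 1 (log2 −0.13) and highest in wild-type control 3 (log2 0.14). These are libraries of 1 group, and for all genes the same medians were −0.01 and 0.03. Wild-type control 1 held lung transcripts and wild-type control 3 did not, and the part of these in the deviation was not tested.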
